A study of Mus musculus with 6 samples.

Results

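The 10 imprinted genes Peg3, Ndn, Magel2, Snrpn, Nnat, Dlk1, Gnas, Cdkn1c, Nap1l5 and Peg10 were followed in neurons of the medial mammillary nucleus (MM), a cell group at the back of the hypothalamus. They were taken by gene name from a table of 55414 mouse genes, in which each name occurred once. RNA sequencing was done on 3 libraries of PV-positive neurons, numbered 6, 7 and 8, and on 3 libraries of Drd2-positive neurons, numbered 1, 2 and 3. PV stands for the calcium-binding protein parvalbumin and Drd2 for the D2 dopamine receptor. All mice were male, and every library went through the same steps: slices were treated with papain, fluorescent neurons were aspirated into glass electrodes, and SMARTer mRNA libraries were made. The sources used here do not give the driver and reporter alleles behind the fluorescence, the age and strain of the mice or the number of cells or animals per library, so p-values measure only the spread between these libraries. No library carries allelic information, so nothing below bears on which parental copy was transcribed.

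An imprinted gene is transcribed mainly from the copy inherited from a single parent, because DNA methylation laid down in the egg or sperm is kept at a control region after fertilisation. Imprinted genes lie in clusters that share such a region, and many are most abundant in the hypothalamus, where they are known for roles in feeding, body temperature, growth and maternal care. Ndn, Magel2 and Snrpn lie in the segment that corresponds to the human Prader-Willi region, whose loss causes infant feeding difficulty followed by hyperphagia. In the mouse 8 of the 10 genes (Peg3, Ndn, Magel2, Snrpn, Nnat, Dlk1, Nap1l5 and Peg10) are transcribed from the paternal copy. Cdkn1c is transcribed from the maternal copy, and Gnas from the maternal copy in only some tissues.

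Values are the authors' FPKM, a read level corrected for gene length and library depth. Levels can be set side by side between genes only as far as the annotated exon lengths hold. The depth recovered from the low values, in units of 1000000 fragments, was 27.7 to 29.8 in PV and 23.8 to 33.7 in Drd2. The labels were checked on Pvalb, at 349, 482 and 563 FPKM in PV against 10.4, 22.5 and 99.5 FPKM in Drd2, and on Drd2, at 0.0132, 0 and 0 FPKM in PV 6, 7 and 8 against 42.7, 55.0 and 7.74 FPKM in Drd2 1, 2 and 3. Library Drd2 3 thus held the least Drd2 and the most Pvalb of its group. PV 7 had the fewest genes at 1 FPKM or more, 8610 against 10293 to 12398 in the other 5 libraries. Neuronal markers did not move together: Snap25 was at 751 to 1109 FPKM in PV and 202 to 503 FPKM in Drd2, Tubb3 at 61.7 to 311 FPKM in PV and 428 to 563 FPKM in Drd2, and the 6 markers summed to 1257 to 1493 FPKM in PV and 1016 to 1224 FPKM in Drd2. The sums of the mammillary transcription factors were 39.7 to 113 FPKM in PV and 104 to 164 FPKM in Drd2. Of the 8 mammillary factors, Sim1 stayed at or below 1.93 FPKM, and Sox14 was at 0.0162 FPKM in PV 6 and listed at 0 in the other 5 libraries.

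The sequences just before the RefSeq transcription start (build GRCm38.p6) are shown for the 3 members of the Prader-Willi segment and for Nap1l5, the member with the highest mean FPKM. These 3 were lower in every PV library than in any Drd2 library, as were 13.1% of all tested genes. For Magel2 the filter on low values, given below, fixed this order in advance. Of the 4 RefSeq starts of Snrpn the one shown was taken because its promoter holds the letters TGCCGC, described below. Its promoter also holds the most CG of the 4. CG dinucleotides, the sites of the methylation that marks imprinted genes, are in capitals. The stretches are chr7:62348247-62348276 on the plus strand for Ndn, chr7:62376879-62376978 on the plus strand for Magel2, chr7:60005200-60005299 on the minus strand for Snrpn and chr6:58907127-58907226 on the minus strand for Nap1l5. The Ndn stretch is kept to 30 bases because GENCODE M21 starts the Ndn exon further upstream and counts these bases as part of it.
Ndn: cccaacaCGcatgCGcaatatCGcatcagc
Magel2: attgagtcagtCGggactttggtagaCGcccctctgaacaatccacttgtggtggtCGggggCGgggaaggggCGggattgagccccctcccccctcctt
Snrpn: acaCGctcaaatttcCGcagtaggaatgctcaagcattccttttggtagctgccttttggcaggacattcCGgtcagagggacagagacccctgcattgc
Nap1l5: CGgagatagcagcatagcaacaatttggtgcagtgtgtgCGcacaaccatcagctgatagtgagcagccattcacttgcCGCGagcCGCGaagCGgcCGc

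RefSeq promoters of 300 bases (250 before to 50 after the start) were at hand for 8 of the 10 members, with 14 starts in all. The Ndn promoter held 11 CG, the Magel2 promoter 10, this Snrpn promoter 7 and the Nap1l5 promoter 17, beside a median of 7 over 32851 mouse promoters. At least as many CG as in Ndn were found in 41.4% of all promoters.

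Ndn (chromosome 7, 62346569 to 62350262, plus strand, mm10) and Magel2 (62377010 to 62381640, plus strand) are single-exon genes 26.7 kb apart, and Snrpn (59982495 to 60140219, minus strand) lies 2206 kb to the left of Ndn. Nap1l5 (chromosome 6, 58905233 to 58907076, minus strand) is a single-exon gene inside an intron of Herc3, and Nnat (chromosome 2, 157560078 to 157562522, plus strand) lies inside an intron of Blcap; neither shares exon bases with its host. Reads of genomic DNA cannot be told from reads of RNA in the 3 single-exon genes, and their part in the values was not tested.

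Of the 10 genes, 5 were abundant in both classes. Nap1l5, Snrpn, Ndn, Nnat and Peg3 averaged 87.7 to 620 FPKM in PV and 76.4 to 744 FPKM in Drd2, while Gnas, Magel2, Dlk1, Cdkn1c and Peg10 had group means below 7 FPKM. By FPKM, Nap1l5 was the highest member in each of the 6 libraries. That rank depends on the exon lengths used: Ndn was scaled by 3694 bases, and RefSeq starts it further downstream. In recovered reads Ndn exceeded Nap1l5 in Drd2 1, 2 and 3 (72375, 57486 and 31437 against 49864, 41607 and 29841). In PV 6, 7 and 8 it was below Nap1l5 (15359, 10608 and 11176 against 32530, 41158 and 24204). The members together made up 1320, 1197 and 1198 FPKM in PV and 2060, 2089 and 1739 FPKM in Drd2. The groups did not overlap, with means of 1239 ± 70.9 FPKM in PV and 1963 ± 194 FPKM in Drd2 (SD, n = 3 each) and an exact permutation p of 0.1, 2-sided, the smallest that 3 against 3 libraries can give. As a share of the FPKM total the sum was 0.309% ± 0.0366 in PV and 0.551% ± 0.0543 in Drd2 (exact permutation p = 0.1). Mitochondrial genes took 9.62% to 31.3% of the FPKM total in PV and 3.74% to 5.20% in Drd2, and their part in this difference was not tested there. After rescaling over nuclear protein-coding genes the summed FPKM, PV minus Drd2, differed by -519 (exact permutation p = 0.1).

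**Figure D1:**
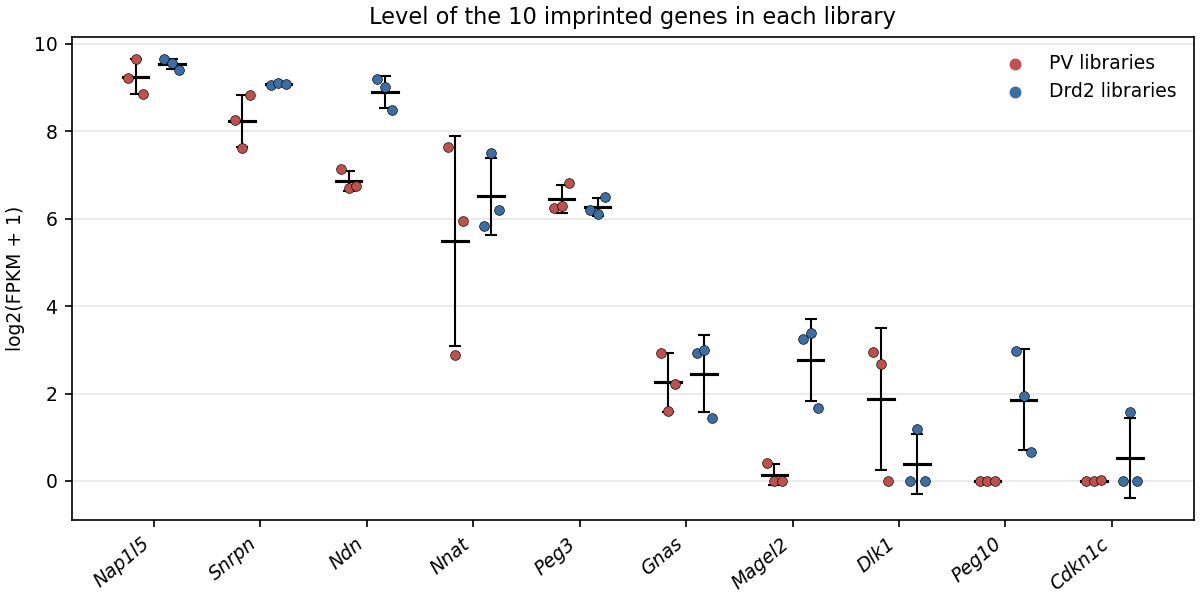
Level of each imprinted gene as log2(FPKM + 1), ordered by mean level, with 3 PV libraries to the left and 3 Drd2 libraries to the right of each gene; lines and bars are the mean and SD. Ndn, Magel2, Snrpn and Peg10 are lower in every PV library than in any Drd2 library, and Nnat spans 6.42 to 197 FPKM within PV.

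PV was compared with Drd2 by limma on log2(FPKM + 1), 2-sided, over the 11478 genes that reached 1 FPKM in 3 libraries or more, with Benjamini-Hochberg adjustment over all of them and a threshold of 0.05. Of the 10 members 8 met this filter. None of the 8 passed, where 0.261% of all tested genes did (30 genes), and Ndn had an unadjusted p under 0.05, as 1468 genes (12.8%) did. Magel2 also had one, but it met the filter only through the Drd2 libraries. Of the 8, 3 (Ndn, Magel2 and Snrpn) were lower in every PV library than in any Drd2 library, as were 13.1% of all tested genes, and 0 were higher in every PV library, as were 5.83%. For Magel2 the filter fixed this order in advance, because only the Drd2 libraries reached 1 FPKM. Peg10, outside the filter, was also lower in every PV library, which makes 4 of the 10 members. Without PV 7 and Drd2 3 together that count was 5, with Nap1l5 added, where 24.6% of tested genes separated in that direction. Peg10 counts among the 5 but not among the tested genes behind this share. The median log2 fold, PV minus Drd2, was -0.57 over the 8 tested members and -0.28 over all tested genes. Without PV 7 these medians were -0.19 and -0.13. With no filter the median was -0.68 over the 10 members and -0.044 over 26063 genes. Scaling moved the median of all genes between -0.50 (TPM) and 0.01 (quantile normalization), so folds are also given relative to it.

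Ndn encodes necdin, a protein of the MAGE family (melanoma antigen family) that restrains cell proliferation and is abundant in postmitotic neurons. It was at 139, 104 and 107 FPKM in PV 6, 7 and 8, from 15359, 10608 and 11176 recovered reads. In Drd2 1, 2 and 3 it was at 581, 518 and 357 FPKM, from 72375, 57486 and 31437 reads. Every PV library was below every Drd2 library, and the lowest Drd2 value was that of the library with the least Drd2 transcript. The means were 117 ± 19.8 FPKM in PV and 485 ± 115 FPKM in Drd2 (SD, n = 3 each), 4.16-fold higher in Drd2. The log2 fold was -2.03 ± 0.36 (SE; 95% interval -2.83 to -1.23), -1.75 relative to the median of all genes, and it missed the threshold narrowly (limma adjusted p = 0.0501, rank 53 of all genes by p). Pvalb and Drd2, the genes that mark the classes, had the same adjusted p in that fit, with log2 folds of 3.93 and -4.79. The adjustment gave this value to a run of genes of neighbouring rank, so the tie does not compare their evidence. Ndn passed with a pseudocount of 5 FPKM (limma adjusted p = 0.0417), array weights (0.0261) and voom on recovered reads (0.0356), its highest adjusted p among 18 alternatives was 0.315, and the fold stayed between -2.24 and -1.83 in all of them.

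Magel2, a second MAGE protein, acts with the ubiquitin ligase TRIM27 and the retromer in returning membrane proteins from endosomes to the cell surface. It was at 0.333 FPKM in PV 6, from 46 reads, and was listed at 0 in PV 7 and PV 8. In Drd2 1, 2 and 3 it was at 8.42, 9.43 and 2.19 FPKM, from 1316, 1311 and 242 reads. The gene met the filter only through the Drd2 libraries. Its log2 fold was -2.63 ± 0.67 (SE; limma adjusted p = 0.149), and adjusted p ran from 0.0985 to 0.649 over the alternatives. Set against Ndn, its neighbour, Magel2 amounted to 0.239%, 0% and 0% of the Ndn level in PV and to 1.45%, 1.82% and 0.614% in Drd2. These shares restate the Magel2 values at or near 0 in PV, so their order is not a separate result.

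Snrpn encodes SmN, the neuronal form of a core protein of the spliceosome. It was at 304, 196 and 453 FPKM in PV and at 528, 548 and 537 FPKM in Drd2, where the spread was small. The PV libraries lay below the Drd2 libraries and scattered more widely, with 318 ± 129 FPKM in PV and 538 ± 10.0 FPKM in Drd2 (SD, n = 3 each). The log2 fold was -0.84 ± 0.39 (SE; limma adjusted p = 0.413), -0.56 relative to the median of all genes. The ratio of Ndn to Snrpn, which a scaling by 1 factor per library cannot alter, was 0.458, 0.531 and 0.236 in PV and 1.10, 0.946 and 0.664 in Drd2. The ratio was lower in every PV library than in any Drd2 library. In the annotation Snrpn shares 589 of its 2159 exon bases with Gm38393 and 216 with Snurf, both on the same strand; Gm38393 was at 0 to 6.63 FPKM in PV and 0.0885 to 0.864 FPKM in Drd2 and Snurf was listed at 0 throughout. The sources used here do not say how reads in shared bases were assigned, so the level of Snrpn is uncertain.

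Of the other genes of this segment, 2 were tested and both had folds above 0. Snhg14, the long noncoding transcript that runs on from Snrpn through the small nucleolar RNA clusters, was at 4.81, 5.02 and 5.56 FPKM in PV and at 2.93, 3.24 and 4.40 FPKM in Drd2. Its groups did not overlap, in the direction opposite to Ndn, with a log2 fold of 0.45 (limma adjusted p = 0.795). Ube3a, the ubiquitin ligase of Angelman syndrome, transcribed from the maternal copy in neurons, was at 14.6, 11.3 and 15.9 FPKM in PV and at 6.69, 7.95 and 12.3 FPKM in Drd2 (log2 fold 0.61, limma adjusted p = 0.663). The folds of Snhg14 and Ube3a were above 0 under every scaling tried. Mkrn3 and Peg12, also paternally transcribed genes of the cluster, were listed at 0 in all 6 libraries.

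**Figure D2:**
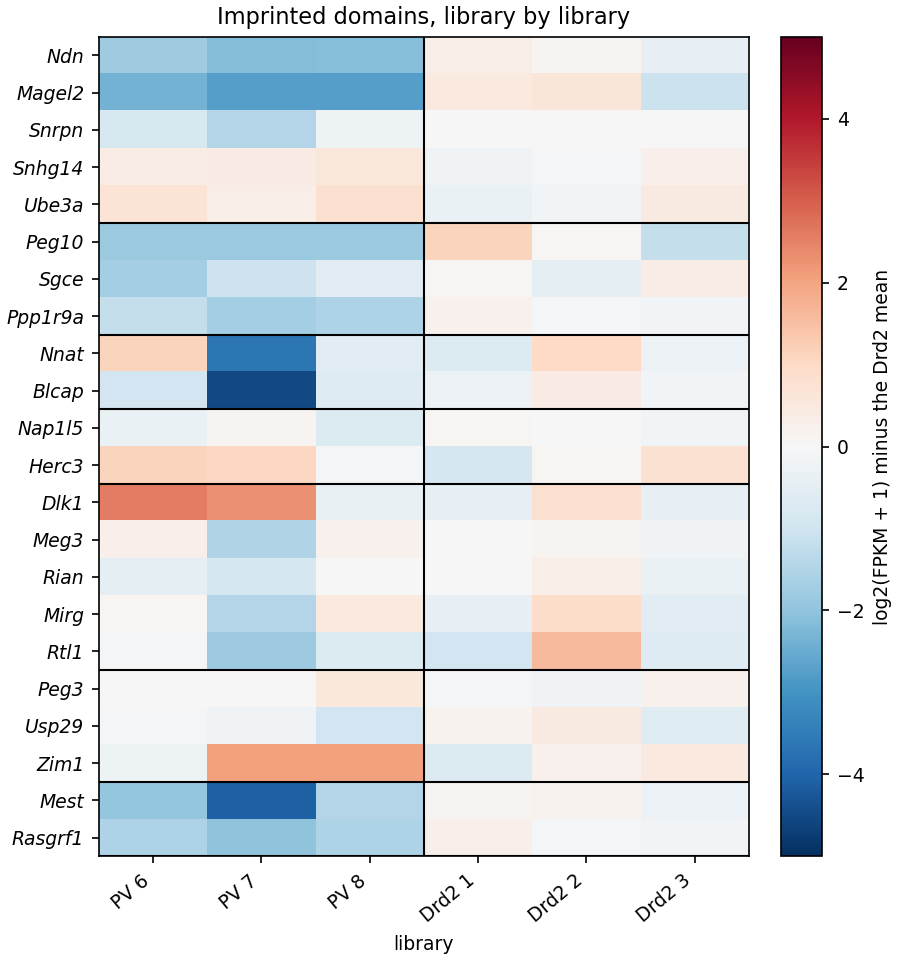
Imprinted genes grouped by cluster (rows, divided by black lines; the last block holds Mest and Rasgrf1) in the 3 PV and 3 Drd2 libraries (columns), as log2(FPKM + 1) minus the Drd2 mean of that gene. Ndn and Magel2 are low across PV while Snhg14 and Ube3a are not, Nnat and Blcap are low in PV 7, and Dlk1 is high in PV 6 and PV 7.

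Peg10, a gene derived from a retrotransposon that keeps a gag-like protein and is essential in the placenta, was at or near 0 in PV. It was listed at 0 in PV 6 and PV 7 and was at 0.00529 FPKM in PV 8, a single read. In Drd2 1, 2 and 3 it was at 6.91, 2.82 and 0.585 FPKM, from 1554, 564 and 93 reads. Peg10 reached 1 FPKM in 2 libraries only and was not tested with the filter. Its neighbour Sgce, the epsilon-sarcoglycan gene, was at 0.294, 1.07 and 1.84 FPKM in PV and at 3.40, 2.08 and 4.53 FPKM in Drd2 (limma adjusted p = 0.508). Ppp1r9a, which encodes the actin-binding neurabin, was at 8.15, 5.35 and 6.23 FPKM in PV and at 23.4, 18.6 and 18.1 FPKM in Drd2 (log2 fold -1.48 ± 0.49, SE; limma adjusted p = 0.244). Sgce and Ppp1r9a were lower in every PV library than in any Drd2 library, as were 13.1% of all tested genes, and neither passed. Peg10 was also lower in every PV library, but it is not among the tested genes. Asb4 was listed at 0 in all libraries, and Calcr in all but PV 8, at 0.541 FPKM.

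Nap1l5, a member of the nucleosome assembly protein family of histone chaperones, was at 592, 806 and 463 FPKM in PV and at 801, 752 and 679 FPKM in Drd2. PV 7 exceeded all 3 Drd2 libraries while PV 6 and PV 8 lay below them. The log2 fold was -0.30 ± 0.35 (SE; 95% interval -1.09 to 0.50; limma adjusted p = 0.768) and lay at the median of all genes. More than 99% of tested genes were below Nap1l5 in every library. Herc3, in whose intron it lies on the opposite strand, was at 11.1, 10.4 and 4.25 FPKM in PV and at 2.07, 4.89 and 8.34 FPKM in Drd2.

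Peg3, a zinc-finger transcription factor linked to maternal behaviour and body weight in mice, was at 74.2, 77.6 and 111 FPKM in PV and at 72.4, 67.9 and 89.0 FPKM in Drd2. The groups overlapped, and the spread within each was small. The means were 87.7 ± 20.6 FPKM in PV and 76.4 ± 11.1 FPKM in Drd2 (SD, n = 3 each), with a log2 fold of 0.18 ± 0.37 (SE; 95% interval -0.65 to 1.01; limma adjusted p = 0.868). Usp29, which shares the Peg3 control region, was at 7.80, 7.18 and 3.76 FPKM in PV and at 9.57, 11.7 and 5.11 FPKM in Drd2. Zim1, a maternally transcribed gene of the cluster, was at 1.19, 9.82 and 9.86 FPKM in PV and at 0.612, 2.02 and 2.66 FPKM in Drd2, with overlap between the groups.

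Nnat encodes neuronatin, a small membrane protein of the endoplasmic reticulum that is thought to regulate calcium uptake. It was at 197, 6.42 and 60.7 FPKM in PV and at 55.7, 180 and 72.5 FPKM in Drd2. The SE of its log2 fold was the largest among the 5 abundant members. The highest and the lowest library were both PV, and the log2 fold of -1.02 ± 1.02 (SE; limma adjusted p = 0.722) was 0.28 without PV 7. Blcap, its host gene, was also lowest in PV 7: it was at 46.1, 3.01 and 57.5 FPKM in PV and at 73.8, 119 and 82.7 FPKM in Drd2 (limma adjusted p = 0.382). Atp2a2, the calcium pump of the endoplasmic reticulum and the only such pump tested, was at 48.0, 73.9 and 87.8 FPKM in PV and at 33.01, 27.15 and 20.03 FPKM in Drd2, higher in every PV library (log2 fold 1.34 ± 0.43, SE; limma adjusted p = 0.224).

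Dlk1, a membrane protein related to the Notch ligands that is found in several hypothalamic neuron types, was at 6.67 and 5.40 FPKM in PV 6 and PV 7, from 1125 and 846 reads, and at 0.00623 FPKM in PV 8, a single read. In Drd2 2 it was at 1.28 FPKM, from 218 reads, and it was listed at 0 in Drd2 1 and Drd2 3. The transcript was thus near 0 in some libraries of each class. Its log2 fold was 1.48 ± 0.84 (SE; limma adjusted p = 0.501). The maternally transcribed noncoding RNA Meg3 of the same cluster was abundant throughout, at 360, 107 and 347 FPKM in PV and at 308, 334 and 267 FPKM in Drd2. Rian was at 4.80 to 9.47 FPKM in PV and 7.28 to 12.3 FPKM in Drd2, and Dio3 was listed at 0 in all libraries. Hcrt, the marker of the hypocretin neurons that carry much Dlk1 in the lateral hypothalamus, was listed at 0 in all PV libraries and reached at most 0.222 FPKM in Drd2. The 8 markers of neighbouring neuropeptide neurons, Hcrt among them, summed to 446 to 771 FPKM in PV and 51.6 to 1874 FPKM in Drd2. Of these Npy was at 439, 753 and 583 FPKM in PV and at 44.4, 134 and 1870 FPKM in Drd2. Of the 14 other genes of the Notch list 5 were tested and none passed; those with the smallest p were Hes1, Hey1 and Rbpj, with log2 folds of 1.27, 0.89 and 0.61.

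Cdkn1c, an inhibitor of cyclin-dependent kinases, was detected in a single library at 1.98 FPKM, Drd2 2, from 121 reads. It was at 0.0173 FPKM in PV 8, a single read, and was listed at 0 in the other 4 libraries. It was not tested with the filter, and 625 of its 2039 exon bases are shared with the antisense gene Gm44732, listed at 0 in all libraries. Drd2 2 was also the library with the highest sums of oligodendrocyte markers (1349 FPKM, against 74.2 and 357 in the other Drd2 libraries and 68.3 to 320 in PV) and the only one with Igf2 above 0, at 0.582 FPKM. The part of other cells in these values was not tested. In its cluster Kcnq1ot1, the paternal noncoding RNA, was at 1.22 to 3.56 FPKM in PV and 1.24 to 1.77 FPKM in Drd2, and Phlda2 and Slc22a18 were listed at 0 throughout.

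Gnas encodes the stimulatory G protein alpha subunit that couples receptors to cAMP, and also the XL and Nesp55 products from upstream promoters. It was at 6.65, 2.03 and 3.69 FPKM in PV and at 6.63, 6.94 and 1.71 FPKM in Drd2. The groups overlapped almost completely (log2 fold -0.20 ± 0.73, SE; limma adjusted p = 0.929), and the sign depended on the scaling: the fold was 0.21 with quantile normalization. In GENCODE M21 1469 of the 11186 exon bases of Gnas are shared with Gm20721 and 988 with Nespas, both on the opposite strand. Gm20721 was at 0.0399 FPKM in Drd2 1 and was listed at 0 in the other libraries, as Nespas was in all. With the strand setting unknown, the level of Gnas is uncertain and its products cannot be told apart. Gnal, the related subunit, was at 7.24, 13.5 and 9.19 FPKM in PV and at 8.04, 2.30 and 2.39 FPKM in Drd2 (limma adjusted p = 0.487). Of 22 other genes of Gs and cAMP signalling 19 were tested and none passed. Adcy3, Pde1b and Adcy9 had the smallest p, with log2 folds of -1.46, -1.47 and 1.59. Adcy3 met the filter only through the Drd2 libraries.

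**Figure D3:**
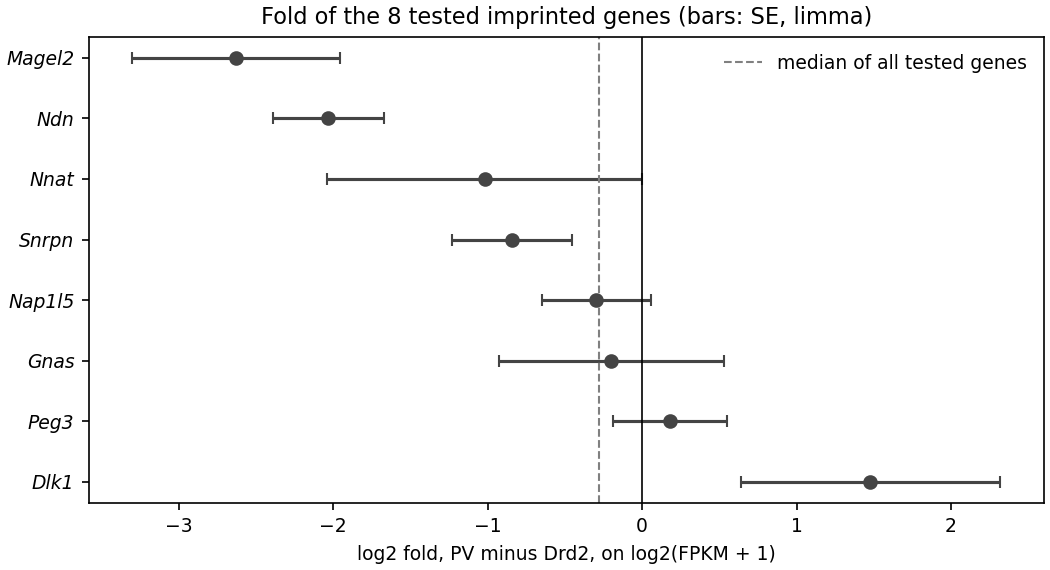
Log2 fold, PV minus Drd2, of the 8 imprinted genes that met the filter, with the SE from limma as bars; the dashed line is the median of all tested genes. Magel2 (-2.63) and Ndn (-2.03) lie furthest to the left and Dlk1 (1.48) furthest to the right.

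**Figure D4:**
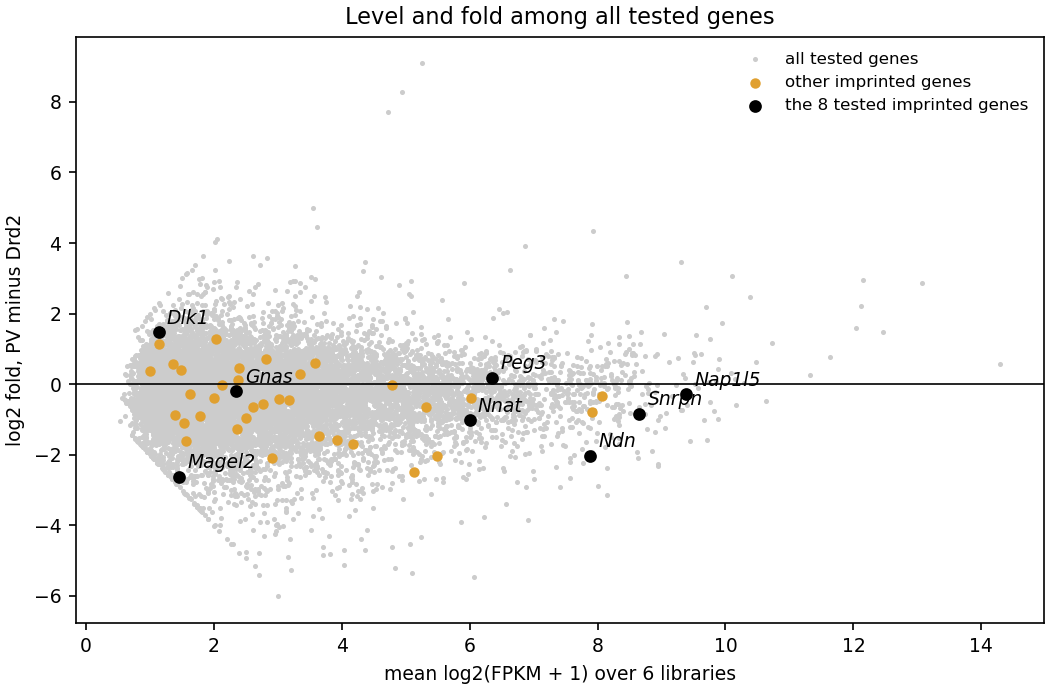
Mean level over the 6 libraries as log2(FPKM + 1), on the horizontal axis, and log2 fold, PV minus Drd2, on the vertical axis, for the 11478 tested genes (grey), 34 other imprinted genes (orange) and the 8 tested members (black, named). Ndn is at -2.03, below Snrpn (-0.84) and Nap1l5 (-0.30), the 2 members of higher mean level.

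In PV the order by mean was Nap1l5, Snrpn, Ndn, Nnat and Peg3. The means of Ndn, Nnat and Peg3, at 117 ± 19.8, 88.0 ± 98.2 and 87.7 ± 20.6 FPKM (SD, n = 3), did not differ beyond their spread, and in PV 8 Peg3 (111 FPKM) was above Ndn (107 FPKM). In Drd2 Ndn, at 485 ± 115 FPKM, lay beside Snrpn and above Nnat, at 103 ± 67.6 FPKM, and Peg3 in every library. Ndn made up 10.6%, 8.67% and 8.90% of the members' summed FPKM in PV and 28.2%, 24.8% and 20.5% in Drd2.

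As a description over the 6 libraries on log2(FPKM + 1), Ndn and Snrpn had a Pearson r of 0.755, Ndn and Nap1l5 of 0.540 and Peg3 and Nap1l5 of -0.791. These points share their libraries and their depth. Among 4292 genes with a mean of at least 10 FPKM, those most like Ndn were Trp53i11, Pithd1 and Lrrc3b (r = 0.994, 0.994 and 0.991), and 179 genes had an r above 0.9. Those most like Snrpn were Spr, Mfap2 and Psmb5 (r = 0.992, 0.990 and 0.990, with 297 genes above 0.9), and those most like Nap1l5 were Hilpda, Tmem184c and Pcna (r = 0.982, 0.980 and 0.979, with 66 above 0.9). Trp53i11 was at 2.11, 0 and 0.0573 FPKM in PV and at 81.9, 60.5 and 37.1 FPKM in Drd2.

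Among 55 further imprinted genes found in the table, 34 were tested and none passed (limma; 6 of the 34 had an unadjusted p under 0.05, where 12.8% of all tested genes did). Of these 24 had a fold below 0 and 10 above, with a median log2 fold of -0.44, -0.16 relative to all genes. Of the 34, 11 were lower in every PV library than in any Drd2 library, where 13.1% of all tested genes were. The opposite held for 2, Snhg14 and Inpp5f, where it held for 5.83% of all tested genes. Mest, a paternally transcribed gene with a hydrolase fold, was at 20.6, 3.96 and 29.3 FPKM in PV and at 91.3, 91.7 and 66.1 FPKM in Drd2 (log2 fold -2.49 ± 0.65, SE; limma adjusted p = 0.157). Rasgrf1, an exchange factor for Ras, was at 10.2, 7.06 and 10.2 FPKM in PV and at 38.0, 29.3 and 28.6 FPKM in Drd2 (log2 fold -1.70 ± 0.46, SE; limma adjusted p = 0.165). Split by the parental copy usually transcribed, members included, 15 of 23 tested paternal genes and 13 of 17 tested maternal genes had a fold below 0, with medians of -0.42 and -0.46, beside 61.6% of all tested genes. Genes whose imprinting varies were counted with the copy usually named for them. Among the maternal genes, those that vary had log2 folds from -2.09 (H13) to 0.70 (Herc3). The others ran from -0.46 (Rian) to 1.28 (Zim1), so the 2 medians do not compare firmly imprinted genes alone. H19 and Igf2, abundant in the embryo, were at or near 0. H19 reached 0.0545 FPKM in PV 6, Igf2 0.582 FPKM in Drd2 2, and neither was above 0 elsewhere.

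Among 6 listed members of the MAGE family, the relatives of Ndn and Magel2, all 6 folds were below 0 under every scaling tried, and none passed. In the main fit 61.6% of all tested genes had a fold below 0. The list does not cover the family: Magef1, added after its values were seen, was at 3.27, 0 and 1.12 FPKM in PV and at 7.27, 16.5 and 24.1 FPKM in Drd2 (log2 fold -2.88 ± 0.77, SE; limma adjusted p = 0.165). Mageh1 was at 8.09 FPKM in PV 6 and was listed at 0 in PV 7 and PV 8, against 35.6, 40.9 and 24.7 FPKM in Drd2 (log2 fold -4.03 ± 0.88, SE; limma adjusted p = 0.0974). Magee1 was at 53.9, 18.2 and 33.6 FPKM in PV and at 126, 81.7 and 71.4 FPKM in Drd2 (limma adjusted p = 0.240). Maged1, the most abundant, was at 150, 123 and 142 FPKM in PV and at 206, 190 and 191 FPKM in Drd2. Maged2 was at 25.9, 14.4 and 27.4 FPKM in PV and at 49.0, 29.7 and 32.3 FPKM in Drd2. Both were among the 4 listed genes lower in every PV library than in any Drd2 library, where 13.1% of all tested genes were. The median log2 fold of the 6 listed genes was -1.14, -0.86 relative to all genes. Of 11 genes of the ubiquitin and retromer complexes in which Magel2 acts none passed; Trim27, the ligase, was at 5.37, 0 and 2.84 FPKM in PV and at 7.81, 8.46 and 11.5 FPKM in Drd2 (limma adjusted p = 0.382), and Washc3 and Washc2 had log2 folds of -1.15 and 1.07.

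**Figure D5:**
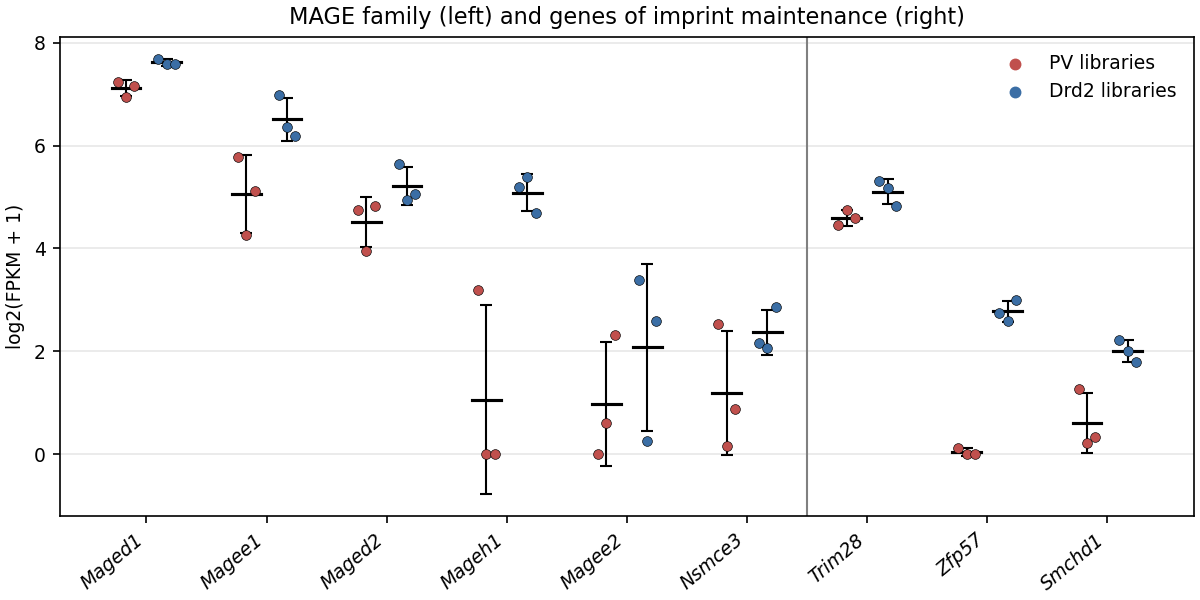
Level as log2(FPKM + 1) of 6 MAGE genes (left of the line) and of 3 genes of imprint maintenance (right), with 3 PV libraries to the left and 3 Drd2 libraries to the right of each gene; lines and bars are the mean and SD. Zfp57 is below 0.1 FPKM in PV and at 4.99 to 6.95 FPKM in Drd2, and Mageh1 is listed at 0 in 2 of 3 PV libraries.

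Genes that keep imprints were examined as another fixed list of 12. Of 9 tested none passed, and 5 had a fold below 0 (4 with quantile normalization). Zfp57, a zinc-finger protein that binds methylated imprint control regions in the embryo, was at 0.0886 FPKM in PV 6 and was listed at 0 in PV 7 and PV 8, against 5.73, 4.99 and 6.95 FPKM in Drd2 (log2 fold -2.73 ± 0.57, SE; limma adjusted p = 0.0844). Zfp57 met the filter only through the Drd2 libraries. Its cofactor Trim28 was at 20.8, 25.8 and 23.1 FPKM in PV and at 38.7, 35.3 and 27.5 FPKM in Drd2 (limma adjusted p = 0.637), and Smchd1, a chromatin protein needed for silencing at some clusters, at 1.41, 0.154 and 0.259 FPKM against 3.64, 3.00 and 2.47 FPKM (limma adjusted p = 0.363). The letters TGCCGC that ZFP57 recognises when methylated, on either strand, occurred in 3 of the 14 member promoters, those of Nap1l5, Nnat and the Snrpn start shown above, and in 11.6% of all promoters of this length. In the Nap1l5 stretch shown above the match begins 24 bases before the start.

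Relatives of the other members gave no call either. Of 7 further Sm core proteins none passed; Snrpb, the ubiquitous counterpart of Snrpn, was at 96.0, 8.84 and 135 FPKM in PV and at 170, 146 and 113 FPKM in Drd2 (limma adjusted p = 0.503), and Snrpg and Snrpe had log2 folds of -0.23 and 0.20. Among 8 histone chaperones related to Nap1l5 none passed. Set was at 46.0, 50.4 and 67.2 FPKM in PV and at 21.7, 26.7 and 17.6 FPKM in Drd2 (log2 fold 1.27 ± 0.41, SE; limma adjusted p = 0.228). It was the only 1 of the 8 whose groups did not overlap. Of all tested genes 5.83% were likewise higher in every PV library and 13.1% lower. Tspyl2 and Tspyl1 had log2 folds of -1.25 and 0.44. Among other genes derived from retrotransposons 7 of 14 were tested and none passed. Rtl8c was at 479, 682 and 904 FPKM in PV and at 1640, 1259 and 1155 FPKM in Drd2 (limma adjusted p = 0.306), with reads that near-identical Rtl8 copies may share, and Rtl8a and Arc had log2 folds of -1.04 and -2.48. Of 10 cell cycle inhibitors and kinase genes listed with Cdkn1c 8 were tested and none passed; Cdk5r2, Cdk4 and Ccnd2 had log2 folds of -1.89, -2.25 and -1.48.

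Markers of other cells moved with the groups to differing degrees. Blood markers summed to 743 to 3204 FPKM in PV and 0 to 12.1 FPKM in Drd2, and GABAergic markers to 2.31 to 17.4 FPKM in PV and 0 to 0.859 FPKM in Drd2, neither overlapping. Sums of microglial markers (456 to 1410 FPKM in PV, 23.9 to 3703 FPKM in Drd2) and of astrocyte markers (27.4 to 87.6 FPKM in PV, 19.1 to 75.4 FPKM in Drd2) overlapped. Their part in the values of the imprinted genes was not tested. Endothelial and mural markers stayed at or below 2.50 FPKM in sum and meningeal fibroblast markers at or below 1.81 FPKM, with Cldn5 and Lum listed at 0 in all libraries. In pooled cells such as these, fewer cells that transcribe a gene and less RNA per cell cannot be told apart.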

How the data were processed

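RNA sequencing of 6 libraries (3 PV, 3 Drd2) was analysed from the authors' deposited FPKM table of 55414 genes. The submitters' processing notes name the aligner STAR, without a version, and list mm10 beside hg38 and GRCh38; the sources used here do not give the gene quantifier, strand setting or annotation release. Samples were grouped by title. Exon lengths and positions came from GENCODE M21, which held 52133 of the identifiers (94.1%). FPKM times exon length gave whole reads within 0.01 for 97.9% to 98.8% of values of up to 20 reads (chance gives 2%); read numbers cover counting error only, and none are given for Peg3 and Gnas, whose values did not come out whole with these lengths. Exact 0 values may be failed estimates. Values were tested as log2(FPKM + 1), which understates folds of low genes, with limma 3.58.1 (intensity trend, R 4.3.3), after keeping genes with at least 1 FPKM in 3 libraries. The test was checked on simulated data. Alternatives were other pseudocounts, filters, scalings, variance models, voom on the recovered reads of 11171 genes, and leaving out libraries; counts of genes whose groups do not overlap were recomputed under settings chosen after seeing the data. The members and lists were chosen with earlier results of these data known. The genes named are the members, and of each other list those past the threshold or otherwise the 3 with the smallest p; further genes of the same clusters and families were named after their values were seen.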

Additional observations from a re-analysis of the deposited data

How the results depend on the processing

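No member passed in the main analysis or in most alternatives; 1 (Ndn) passed with a pseudocount of 5 FPKM, array weights and voom on recovered reads, and 0 when any library was left out. No other listed imprinted gene passed in any setting. Over all genes 30 passed; 4 did with a pseudocount of 0.1 FPKM, 68 with 5 FPKM, 0 with no filter on low values (limma, where 1509 genes had an unadjusted p under 0.05), 62 with quantile normalization, 46 without intensity trend, 105 with array weights, 14 after rescaling over nuclear protein-coding genes, 18 without PV 7 and Drd2 3, and 1 to 56 when single libraries were left out (1 without Drd2 3, 2 without Drd2 1, 3 without Drd2 2, 56 without PV 6); the cause was not tested. Folds that changed sign were those of Gnas (0.21 with quantile normalization, and -0.71 to 0.13 when single libraries were left out), Nnat (0.12 without PV 7 and Drd2 3, and -2.09 to 0.28 with single libraries left out) and Peg3 (-0.0011 to 0.29 with single libraries left out). The folds of Ndn, Magel2, Snrpn, Nap1l5 and Dlk1 kept their sign in every alternative in which they were tested, but not their size: over all alternatives the fold of Dlk1 was 0.65 to 4.96, of Magel2 -8.46 to -1.13, of Snrpn -1.14 to -0.53 and of Nap1l5 -0.57 to -0.092. Leaving out single libraries gave 0.95 to 2.41 for Dlk1 and -0.50 to -0.10 for Nap1l5. The 4 members lower in every PV library (Ndn, Snrpn, Magel2 and Peg10) remained so under every scaling. Among tested genes 9.06% to 16.2% separated in this direction. These shares do not cover Peg10, which was not tested, and Magel2 met the filter only through the Drd2 libraries. Leaving out a library cannot undo such an order. Nap1l5 joined them with TPM (16.2% of tested genes), quantile normalization (9.06%) and without PV 7 (17.6%). No paired analysis was possible because the groups share no replicate numbers. With 3 libraries a group, the 95% intervals of single folds span more than 1 on the log2 scale.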
